A study of Mus musculus with 6 samples.

Results

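The clustered replication-dependent histone genes were taken as every gene whose symbol in the platform annotation starts with Hist1h, Hist2h, Hist3h or Hist4h and that had a probe set carrying no other gene symbol. This gave 28 of the 30141 genes tested, 5 of class H1, 9 of H2A, 9 of H2B, 3 of H3 and 2 of H4. Of these, 22 belong to the Hist1 group on chromosome 13, 5 to the Hist2 group on chromosome 3 and 1, the pseudogene Hist3h2bb-ps, to the Hist3 group on chromosome 11. One gene, Hist1h4b, had 2 probe sets, and the brighter was used. All 28 sets of values were distinct. Many histone genes are near-identical copies, and of 69 such symbols in the annotation 41 occur only on probe sets that name several genes, so that the family is sampled unevenly and H4 in particular rests on dim probe sets.

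The arrays measured RNA from late-stage tumours of mice C1M3, C1M5 and C2M3 (3 animals). Each animal had received ID8-VEGF cells, a VEGF-producing form of the mouse ovarian surface epithelial line ID8, beneath the bursa of the ovary, and each contributed 1 primary and 1 metastatic tumour (3 arrays per group). All 6 tumours thus come from 1 cell line. Strain, age, any treatment and the site of each metastasis are not given in the labels. The keratin gene Krt18 (11.32 to 13.33 log2 units) and the ovarian surface factor gene Wt1 (10.11 to 11.07) were bright on every array, while the epithelial adhesion gene Epcam stayed between 4.77 and 5.43. Values are log2 intensities of a probe set, and a difference is metastatic minus primary, so that -1 is a 2-fold lower intensity.

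Histones are the proteins around which DNA is wound: H2A, H2B, H3 and H4 form the core of the nucleosome and H1 binds the DNA that links nucleosomes. The clustered genes are switched on as cells enter S phase, when new DNA must be packed. NPAT, activated by cyclin E and CDK2, drives their transcription, and their mRNAs end in a stem-loop bound by SLBP in place of a poly(A) tail and are destroyed when replication stops. Their RNA is therefore often read as a sign of S phase. How the RNA was primed for labelling is not given in the labels. In bulk tumour RNA, fewer cells in S phase and less histone RNA per cell cannot be told apart.

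The promoters of many H1 and H2B genes carry different short elements, beside a CCAAT box in nearly all windows and a TATA box in some. The windows below show these elements for genes whose values are given further on. RefSeq windows (GRCm38.p6) that run from 250 bases before to 50 bases after the transcript start were found for 24 of the 28 genes and searched on both strands. The octamer ATTTGCAT was present in 5 of 7 H2B windows and 2 of 8 H2A windows, and in 1.74% of all 32851 windows in the table. The 2 H2A windows, of Hist1h2ah and Hist1h2aa, overlap those of their H2B neighbours Hist1h2bk and Hist1h2ba. In each pair the octamer is the same DNA counted for both genes. The H1 element AAACACA was present in 4 of 5 H1, 1 of 8 H2A and 2 of 7 H2B windows, against 7.18% of all windows. The H2A match, in Hist1h2aa, is the same DNA as the match in Hist1h2ba. CCAAT occurred in 23 of 24 members (37.4% of all windows) and TATAAA in 13 of 24 (13.6%). A match is a description of these letters and not evidence of a site in use. The 150 bases before the start are printed 5′ to 3′ in the direction of transcription, with matches to these elements, on either strand, in capitals. Hist1h1b lies at chr13:21780626-21780775 (- strand), Hist1h1c at chr13:23738657-23738806 (+ strand), Hist1h2ak at chr13:21753913-21754062 (- strand) and Hist1h2bb at chr13:23746584-23746733 (+ strand). Hist1h2ah at chr13:22035644-22035793 (- strand) and Hist1h2bk at chr13:22035671-22035820 (+ strand) face away from each other with 178 bases between their starts, and 123 bases of the printed windows are the same DNA read from opposite strands. The window of Hist1h4b, at chr13:23756787-23756936 (+ strand), is shown as a stretch with no match.
Hist1h1b: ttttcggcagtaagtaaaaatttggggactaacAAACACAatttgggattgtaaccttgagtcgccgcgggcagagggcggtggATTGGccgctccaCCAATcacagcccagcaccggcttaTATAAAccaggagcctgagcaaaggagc
Hist1h1c: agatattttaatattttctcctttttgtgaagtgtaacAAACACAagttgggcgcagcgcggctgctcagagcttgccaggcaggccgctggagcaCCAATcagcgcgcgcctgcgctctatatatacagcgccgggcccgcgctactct
Hist1h2ak: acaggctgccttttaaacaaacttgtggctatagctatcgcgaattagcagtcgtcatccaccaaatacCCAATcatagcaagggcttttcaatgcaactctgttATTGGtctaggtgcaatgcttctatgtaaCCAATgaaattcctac
Hist1h2ah: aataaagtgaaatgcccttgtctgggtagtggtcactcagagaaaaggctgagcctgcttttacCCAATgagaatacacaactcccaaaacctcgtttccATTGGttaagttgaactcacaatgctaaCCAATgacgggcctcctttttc
Hist1h2bk: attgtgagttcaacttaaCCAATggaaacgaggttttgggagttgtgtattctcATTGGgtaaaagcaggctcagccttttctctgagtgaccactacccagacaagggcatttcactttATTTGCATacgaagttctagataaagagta
Hist1h2bb: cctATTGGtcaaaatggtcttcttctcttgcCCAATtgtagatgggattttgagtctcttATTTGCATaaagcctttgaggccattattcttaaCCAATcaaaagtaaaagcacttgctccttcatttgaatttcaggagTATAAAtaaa
Hist1h4b: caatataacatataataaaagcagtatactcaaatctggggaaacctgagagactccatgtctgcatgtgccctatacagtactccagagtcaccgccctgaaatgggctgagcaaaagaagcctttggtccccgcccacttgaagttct

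The members were lower on average in metastatic tumours, but none passed the test, and most had their highest value in 1 primary tumour. That tumour, from mouse C1M3, gave the single highest value of the 6 arrays for 22 of 28 members (28.9% of all genes tested) and of the 3 primary arrays for the same number (48.4%). It exceeded both other primary tumours by 2-fold or more for 9 members (5.07% of all genes). Across arrays the median member stood at 5.89 in that tumour, against 4.80 and 4.88 in the primary tumours of C1M5 and C2M3 and 5.14, 4.90 and 4.60 in the metastases of C1M3, C1M5 and C2M3. The metastasis of C1M3 was in turn the highest of the 3 metastases for 24 of 28 members (22.6% of all genes), and the metastasis of C2M3 was the single lowest array for 14 of 28 (11.7%). So the histone signal was highest in both tumours of C1M3 and lowest in the metastasis of C2M3, with the remaining arrays between.

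**Figure D1:**
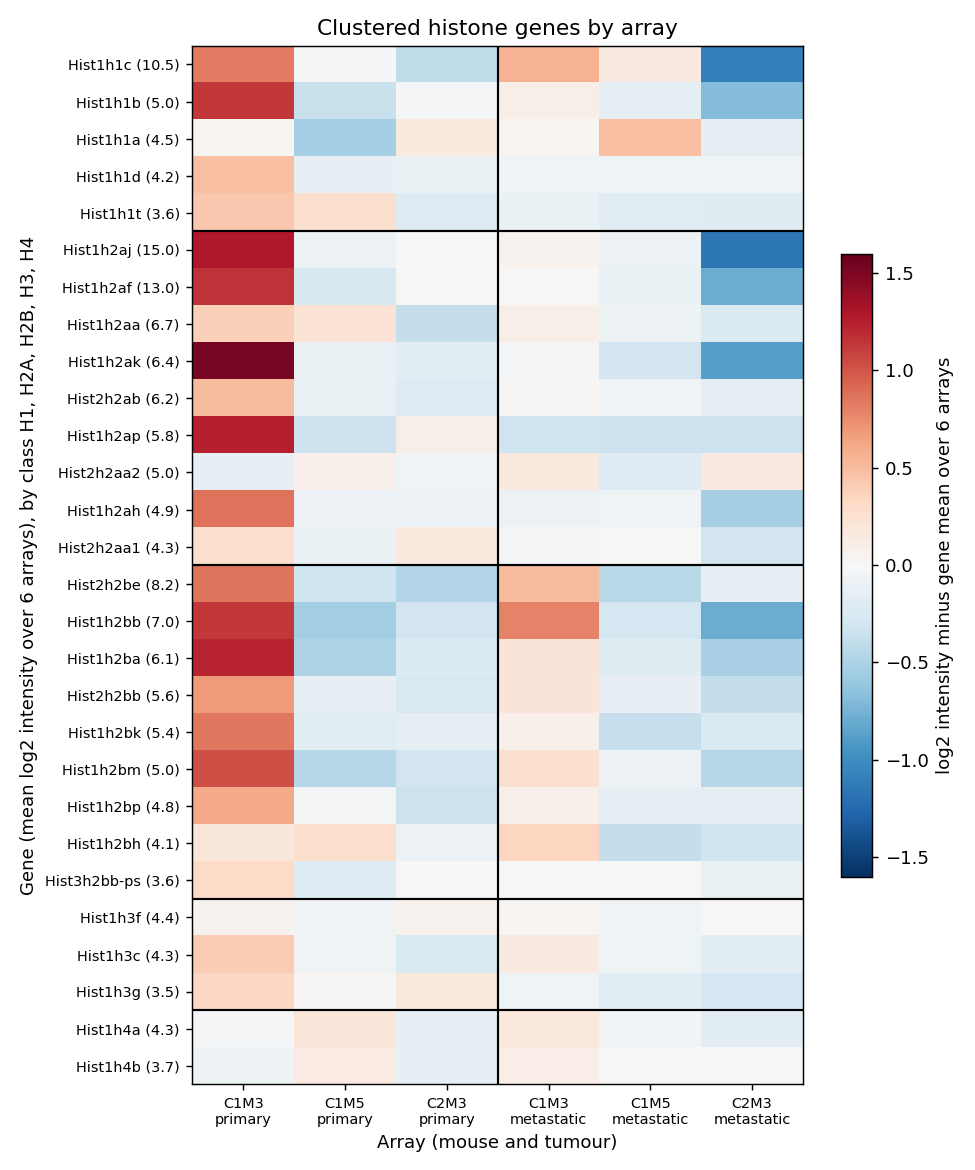
Log2 intensity of each of the 28 histone genes on each of the 6 arrays, as a colour for the deviation from that gene's mean over the 6 arrays; rows are genes grouped by class with the mean level in brackets, and the vertical line parts primary from metastatic tumours. The primary tumour of C1M3 holds the highest value for 22 of 28 genes, and the H4 rows at the bottom stay near their means.

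Metastatic and primary tumours were compared within mice by limma with the mouse as a block. Of 28 members, 25 had a lower mean in metastases, against 44.9% of all genes, and the median difference was -0.20, against 0.016 over all genes. Within C1M3 the metastasis was lower for 23 members (54.3% of all genes; median -0.43), within C2M3 for 19 (31.3%; median -0.15) and within C1M5 for 13 (36.2%; median 0.00). No member differed by 2-fold or more in the mean (0.567% of all genes were lower and 1.61% higher by that much). Lower values in the metastasis of every mouse were found for 4 members, Hist1h2ak, Hist1h2bk, Hist1h3f and Hist1h3g, a share of 14.3% against 8.64% of all genes, and no member was higher in every mouse (11.1% of all genes). No member passed, with Benjamini-Hochberg adjusted p between 0.841 and 0.965, and neither did any of the 30141 genes (0% called). At an unadjusted p under 0.05 there was 1 member, Hist1h3g (1.97% of all genes were called lower and 2.96% higher at that level). The fit without the mouse block also called 0 genes, with Hist1h3g again the 1 member at an unadjusted p under 0.05 (1.33% of all genes lower and 2.88% higher).

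How many members were lower depended on the arrays used, most of all on the primary tumour of C1M3. Without that mouse, and with the other pairs kept, 20 of 28 members had a lower mean (36.7% of all genes) and the median difference was -0.092, against 0.044 over all genes. Without only its primary tumour, which keeps its metastasis and needs a fit with no mouse block, 13 of 28 had a lower mean (37.2% of all genes) and the median was 0.015. The median was -0.29 without mouse C1M5 (25 members lower, 45.8% of all genes) and -0.24 without C2M3 (26 members, 50.9%). Leaving out the C1M5 primary tumour instead gave a median of -0.30, the C2M3 primary tumour -0.37, the C1M3 metastasis -0.36 and the C2M3 metastasis -0.092. Without the C2M3 metastasis 20 members had a lower mean (46.4% of all genes), the same number as without mouse C1M3. By class, the median with all arrays was -0.26 for H1, -0.46 for H2A, -0.19 for H2B and -0.066 for H3. Without mouse C1M3, with the other pairs kept, it was -0.22, -0.21, -0.0033 and -0.0315. Without only the C1M3 primary tumour it was 0.057, -0.14, 0.12 and -0.011. That last fit keeps the C1M3 metastasis without its pair, the highest of the 3 metastases for 24 of 28 members. Counts of genes lower in every mouse grow when 1 mouse is left out or all values of an array are shifted, so each is given with its share of all genes. The count was 16 members without mouse C1M5 (15.3% of all genes), 9 without C2M3 (18.2%) and 6 without C1M3 (18.5%). It was 16 when arrays were centred on their medians (19.6%) and 13 after a further quantile normalization (14.7%). The same scalings put the mean lower in metastases for 69.6% and 56.4% of all genes and for 27 and 26 members. Of the 28 members, 9 held the same value on 2 or more arrays, and 3 had equal values in both tumours of C1M5.

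**Figure D2:**
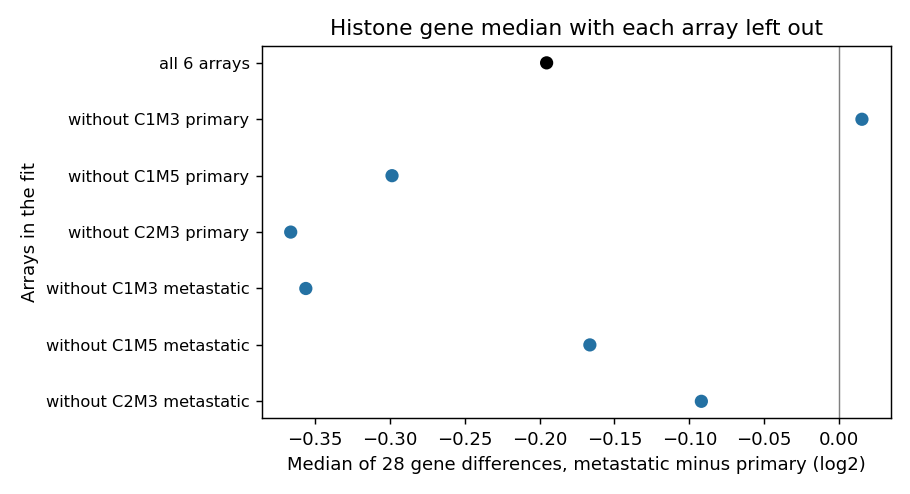
Median over the 28 histone genes of the difference between metastatic and primary tumours, in log2 units, with all 6 arrays and with each array left out in turn (1 point per fit). The point crosses to 0.015 without the primary tumour of C1M3 and lies between -0.37 and -0.092 without any other.

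The linker histones ranged widely in level. Hist1h1c, now H1f2, encodes a linker histone of most somatic tissues, and was the one bright H1 gene, at 11.36, 10.50 and 10.13 in the primary tumours of C1M3, C1M5 and C2M3 and 11.09, 10.68 and 9.44 in their metastases. The groups overlapped: both tumours of C1M3 were high and the metastasis of C2M3 was lowest. Its difference was -0.26 (SE 0.21, limma adjusted p = 0.841), made of -0.27 in C1M3, 0.18 in C1M5 and -0.69 in C2M3. Hist1h1b, now H1f5, a linker histone of dividing cells whose window shows both the H1 element and a TATA box, had 6.16, 4.67 and 5.01 in primary and 5.12, 4.87 and 4.33 in metastatic tumours (difference -0.51, SE 0.30). Only the primary tumour of C1M3 stood clear of the others, by 1.04 over the next array. Hist1h1a had a higher mean in metastases, at 4.58, 3.996 and 4.70 in primary and 4.58, 5.03 and 4.39 in metastatic tumours. Its difference of 0.24 (SE 0.33) was made of 0.00, 1.03 and -0.31. Hist1h1d and the testis linker histone gene Hist1h1t, at mean levels of 4.21 and 3.58, differed by -0.15 and -0.33. For Hist1h1d all 3 metastases lay at the same level, 4.14.

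Among the 28 members the widest differences were in H2A genes. Hist1h2ak, now H2ac15, had 7.87, 6.23 and 6.18 in the primary tumours of C1M3, C1M5 and C2M3 and 6.33, 6.06 and 5.47 in their metastases. It was lower in the metastasis of every mouse, with differences of -1.54, -0.18 and -0.71 and a mean difference of -0.81 (SE 0.32, limma adjusted p = 0.841). The metastasis of C1M3 nevertheless lay above the primary tumours of the other two mice, so the groups overlapped. Hist1h2af, now H2ac10, was bright throughout, with 14.17, 12.76 and 13.01 in primary and 13.02, 12.91 and 12.22 in metastatic tumours (difference -0.60, SE 0.32). Hist1h2ap had 7.04, 5.46 and 5.89 in primary tumours and stayed between 5.45 and 5.48 in metastases (difference -0.67, SE 0.38). The primary tumours of C1M3 and C2M3 stood above the other 4 arrays, which lay together.

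Hist1h2aj, the brightest member at a mean of 14.96, had 16.24, 14.87 and 14.97 in primary and 15.02, 14.87 and 13.80 in metastatic tumours (difference -0.80, SE 0.33). RefSeq lists it as a pseudogene, and it was matched there by synonym and not by Entrez identifier. A probe set shared by 10 H2A genes, first named for Hist1h2an and not naming Hist1h2aj, ran in parallel. It had 16.08, 14.65 and 14.67 in primary and 14.78, 14.67 and 13.95 in metastatic tumours. Whether both probe sets read the same transcripts was not tested. Among the other H2A genes, Hist1h2ah differed by -0.46 (SE 0.24), with 5.76 in the primary tumour of C1M3 and 4.36 to 4.83 elsewhere. The Hist2 genes Hist2h2ab, Hist2h2aa1 and Hist2h2aa2 differed by -0.12, -0.21 and 0.066, and Hist2h2aa2 was the one H2A gene not highest in the primary tumour of C1M3, at 4.88 there within a range of 4.81 to 5.17.

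All 9 H2B genes had a lower mean in metastases, with a median difference of -0.19 and single differences from -0.34 to -0.047. The primary tumour of C1M3, which also enters these differences, exceeded the mean of the other 2 primary tumours by a median of 1.01 over the 9 genes (0.067 over all genes tested). Hist2h2be, now H2bc21, known for its expression in olfactory neurons, had 9.06, 7.89 and 7.75 in primary and 8.71, 7.76 and 8.09 in metastatic tumours (difference -0.047, SE 0.17). Hist1h2bb, now H2bc3, had 8.17, 6.48 and 6.72 in primary and 7.83, 6.74 and 6.24 in metastatic tumours (difference -0.19, SE 0.19). In both genes the 2 tumours of C1M3 were the highest arrays. Hist1h2bk had 6.23, 5.20 and 5.23 in primary and 5.46, 5.02 and 5.15 in metastatic tumours (difference -0.34, SE 0.18), and Hist2h2bb had 6.30, 5.49 and 5.38 against 5.83, 5.49 and 5.24 (difference -0.20, SE 0.12). Both had their next highest value in the metastasis of C1M3.

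Among H2B genes with a window in the table, those with the octamer were Hist1h2ba, Hist1h2bb, Hist1h2bk, Hist1h2bm and Hist2h2bb. In these the primary tumour of C1M3 exceeded the mean of the other primary tumours by 1.57, 1.56, 1.01, 1.40 and 0.87. In Hist1h2bp and Hist1h2bh, whose windows held no octamer, the excess was 0.80 and 0.082. The H2A genes were ordered otherwise. The excess was 0.47 in Hist1h2aa and 0.96 in Hist1h2ah, whose windows share the octamers of Hist1h2ba and Hist1h2bk and are not separate cases. It was 1.66, 1.37 and 1.28 in Hist1h2ak, Hist1h2ap and Hist1h2af, which have no octamer, and -0.14 to 0.67 in the 3 Hist2 genes without it. Hist1h2bh is dim, at a mean of 4.11, so that these are descriptions of genes of unequal brightness.

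Pairs of genes that share a promoter region are given side by side, and whether partners differed from each other was not tested. Of the H2A and H2B pair printed above, Hist1h2ah differed by -0.96, 0.019 and -0.44 in C1M3, C1M5 and C2M3 (mean -0.46, SE 0.24). Hist1h2bk differed by -0.77, -0.18 and -0.081 (mean -0.34, SE 0.18). The testis pair Hist1h2aa and Hist1h2ba, with 281 bases between their starts, encodes the H2A and H2B forms of male germ cells. Hist1h2ba had 7.34, 5.63 and 5.91 in primary and 6.33, 5.93 and 5.61 in metastatic tumours (difference -0.34, SE 0.31), and the primary tumour of C1M3 was highest by 1.01. Hist1h2aa spanned only 6.36 to 7.13 over the 6 arrays (difference -0.14, SE 0.13).

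The H3 and H4 genes with a probe set of their own were dim, between mean levels of 3.50 and 4.42. As a gauge of unexpressed genes, 1225 olfactory receptor genes (Olfr), which sense odours in the nose, had a median level of 4.10. All but 62 of them lay at or below 4.99, as did 13 of the 28 members. Above that level lay 15 of the 28 members and 15358 of the 30141 genes tested, so the members were near all genes in this. Hist1h3g, now H3c8, had 3.84, 3.52 and 3.67 in primary and 3.44, 3.33 and 3.23 in metastatic tumours. It was the 1 member whose groups did not overlap with metastases lower (2.84% of all genes; 4.79% were apart with metastases higher, and no member), with a difference of -0.34 (SE 0.079, limma unadjusted p = 0.0217, adjusted p = 0.841), at levels under the olfactory receptor median. Hist1h3f varied by 0.11 over all 6 arrays, with differences within mice of -0.023, -0.0017 and -0.061, and Hist1h3c spanned 4.08 to 4.74. The H4 genes Hist1h4a and Hist1h4b differed by -0.029 (SE 0.11) and 0.055 (SE 0.094), and Hist1h4b turned to -0.051 when arrays were centred on their medians. Neither was highest in the primary tumour of C1M3.

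**Figure D3:**
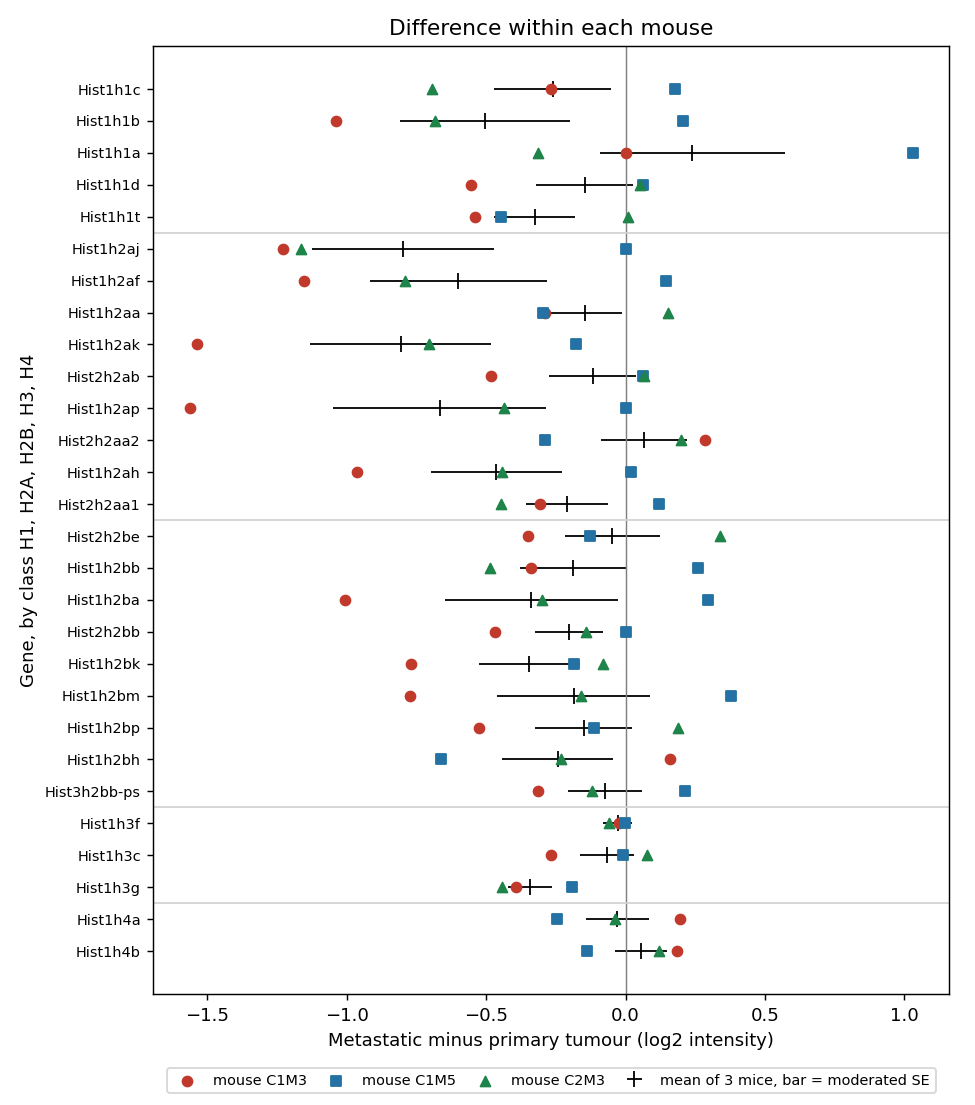
Difference between the metastatic and primary tumour of each mouse in log2 units for the 28 histone genes, grouped by class from H1 at the top to H4 at the bottom; symbols are mice, the vertical tick is the mean of 3 mice and the horizontal bar the moderated SE from limma. Mouse C1M3 reaches -1.56 (Hist1h2ap), while C1M5 is spread around 0.

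Probe sets that name several genes measured the copies left out above, some together with members. There were 37, naming up to 13 genes each, with mean levels from 3.94 to 14.80. Of these, 33 had a lower mean in metastases (44.9% of all genes tested), with a median difference of -0.24. The primary tumour of C1M3 was the highest array for 28 (28.9% of all genes tested). Those first named for H4 genes, 10 in number, had a median difference of -0.19 and 9 were highest in that tumour, unlike the H4 genes with their own probe sets. All 10 also name Hist1h4a and Hist1h4b. The 10 had a median level of 5.41 (3.94 to 12.27), and Hist1h4a and Hist1h4b lay at 4.35 and 3.72. The dimmest of the 10 had 4.72 in that tumour and 3.60 to 3.925 elsewhere. The part of brightness in this contrast was not tested. The widest difference, -0.89, exceeded that of any member and was that of a probe set naming 4 H2B genes. Without the primary tumour of C1M3 the median over the 37 was -0.0056.

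Genes of DNA replication work in the same phase of the cell cycle, and none passed the test. Of 18 measured genes of DNA replication, 17 had a lower mean in metastases (44.9% of all genes), with a median of -0.32. As many, 17, were highest in the primary tumour of C1M3 (28.9% of all genes). Mcm2, a subunit of the replicative helicase that also binds histones, had 9.40, 7.88 and 7.88 in primary and 8.25, 7.88 and 7.46 in metastatic tumours (difference -0.52, SE 0.28). Mcm5 and Mcm6, of the same helicase, differed by -0.52 (SE 0.31) and -0.50 (SE 0.18). Pcna, the sliding clamp of replication, had 13.92, 12.67 and 12.23 against 12.89, 12.91 and 12.01 (difference -0.34, SE 0.30), and 0.15 without the primary tumour of C1M3. Mki67, a marker of cycling cells, had 12.89, 11.54 and 11.07 against 11.90, 11.48 and 9.20 (difference -0.97, SE 0.42), with the same highest and lowest arrays as the histone median. The replication median was -0.093 without mouse C1M3, -0.0019 without only its primary tumour and -0.15 without the C2M3 metastasis.

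The 20 measured genes of histone mRNA synthesis and processing had a smaller median difference, -0.099, with 17 lower in mean (44.9% of all genes). The median was -0.077 without mouse C1M3 and -0.037 without only its primary tumour. Slbp, which binds the histone mRNA stem-loop, had 7.20 in the primary tumour of C1M3 and 6.14 to 6.44 in the other arrays (difference -0.31, SE 0.20). Npat, the activator of histone transcription, spanned only 8.78 to 9.15 (difference -0.15, SE 0.078). Upf1, a helicase needed for histone mRNA decay, and Srrt, which links the mRNA cap to processing, differed by -0.39 (SE 0.19) and -0.31 (SE 0.15), and their highest array was the primary tumour of C2M3. Among 17 histone chaperones, 14 had a lower mean (44.9% of all genes) and 11 were highest in the primary tumour of C1M3 (28.9%). Their median was -0.099, and -0.024 without mouse C1M3 and 0.011 without only its primary tumour. Asf1b, the chaperone of dividing cells that carries H3 and H4, had 10.00, 8.30 and 8.40 in primary and 8.65, 8.33 and 7.66 in metastatic tumours (difference -0.69, SE 0.33). Nasp, which protects soluble H3 and H4, differed by -0.27 (SE 0.16) and Chaf1a, of chromatin assembly factor CAF-1, by -0.22 (SE 0.15).

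Of 11 measured replication-independent histone genes, made through the cell cycle or in germ cells, 8 had a lower mean (44.9% of all genes). Their median was -0.22, and 0.074 without mouse C1M3 and 0.079 without only its primary tumour. H2afx, whose protein is phosphorylated at DNA breaks and whose mRNA exists both with the stem-loop and with a poly(A) tail, was lower in the metastasis of each mouse, with differences of -1.39, -0.58 and -1.23. Its values were 8.95, 7.83 and 8.01 in primary and 7.56, 7.25 and 6.78 in metastatic tumours, without overlap, and the difference of -1.07 (SE 0.20, limma unadjusted p = 0.0133) did not pass (adjusted p = 0.841). H2afv, an H2A.Z form, had 13.85 in the primary tumour of C1M3 and 12.13 to 12.50 elsewhere (difference -0.47, SE 0.47), and 0.076 without that array. H2afb1, a testis form, was higher in every metastasis, at 4.47, 4.29 and 4.28 against 4.16, 3.88 and 3.90 (difference 0.37, SE 0.055, adjusted p = 0.841), at levels within the range of the olfactory receptor genes.

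**Figure D4:**
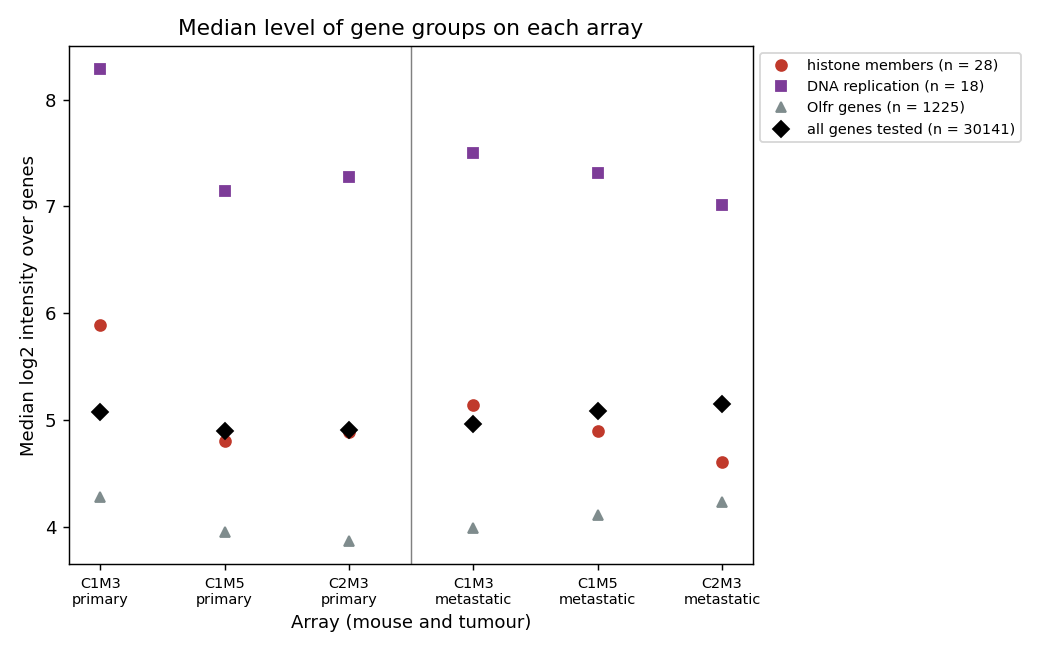
Median log2 intensity on each array of the 28 histone genes, 18 DNA replication genes, 1225 olfactory receptor genes and all 30141 genes tested; each point is 1 array, and the vertical line parts primary from metastatic tumours. Histone and replication medians are highest in the primary tumour of C1M3 (5.89 and 8.28) and lowest in the metastasis of C2M3 (4.60 and 7.01), where the olfactory receptor median is 4.23.

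Other measures also set the primary tumour of C1M3 apart. Its olfactory receptor median, 4.28, was the highest of the arrays (3.87 to 4.23 in the others), and its excess over the mean of the other primary tumours had a median of 0.33 over those genes, against 0.73 over the histone members. With the receptor level of each array as a covariate and no mouse block, the histone median was -0.28. Macrophage and fibroblast markers were low in that tumour. All 9 measured of 10 macrophage markers and all 7 of 8 fibroblast markers had their lowest value there, with list means of 6.57 and 7.05, against 8.40 to 9.30 and 8.55 to 10.31 in the other arrays. The same held for 5 of 9 T and B cell markers, 3 of 8 endothelial markers, 2 of 8 adipocyte markers and none of 6 erythroid markers. Of all 30141 genes, 4935 were lowest there. The T and B cell mean was also lowest in that tumour, at 4.49 (4.71 to 5.16 in the other arrays). The endothelial and erythroid means were not, at 6.49 (6.31 to 8.77 in the other arrays) and 5.55 (4.96 to 6.95). The mean of the 8 adipocyte markers was 9.26 and 11.59 in the primary tumours of C1M5 and C2M3 and 5.41 to 5.88 in the other arrays. The mean of the 10 epithelial and mesothelial markers ran from 9.59 to 11.05, and was 9.82 in the primary tumour of C1M3. No marker is at 0 on this scale. The part of these in the histone values was not tested.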

How the data were processed

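The authors deposited 1 log2 value per probe set for each of 6 arrays. RMA and Transcriptome Analysis Console are named in the submitters' processing notes, without versions, and the build behind the array annotation is not given in the sources used here. Log2 values of the genes tested lay between 2.53 and 19.89, and array medians between 4.90 and 5.15. No filter on dim genes was applied, and the number of arrays limits the precision.

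Groups follow the tissue label and pairs the donor label. The primary tumour of C2M3 has C2M2 as source name, and the donor label was followed. Per gene the probe set with the highest mean was kept. Differences were fitted in limma 3.58.1 (R 4.3.3) with mouse and tissue as terms, with two-sided p-values adjusted by Benjamini-Hochberg across 30141 genes and a threshold of 0.05. The fit was tested on simulated data. Within a mouse, deviations from the group means correlated between its tumours with r = -0.052, 0.354 and 0.073 in C1M3, C1M5 and C2M3. The highest r across mice was 0.127, -0.018 and 0.127, so for C1M3 and C2M3 a mismatched pair was more alike than the own pair. The pairing comes from the donor label. With the mouse as a block, the p-values rest on how far the difference within a mouse varies from mouse to mouse, moderated by limma over all genes. Level differences between animals are taken out by the block.

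Members, lists and tests were chosen with earlier results of these data known. Named genes were, per class, the 3 of highest level and up to 3 with the largest difference above the median level of all genes, any gene past the threshold, up to 3 genes per related list, and Mki67, Pcna, Slbp, Npat and H2afx. Others were named after their values were seen. Alternatives changed the block, scaling, filter, probe set choice, weights, prior and arrays used.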

Additional observations from a re-analysis of the deposited data

How the results depend on the processing

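None of the alternatives run put a histone member past the adjusted threshold. Centring each array on its median put 16 members lower in every mouse (19.6% of all genes), and quantile normalization put 13 (14.7%), against 4 (8.64%) with the deposited values. With centring the median of all genes was -0.090, against 0.016 without. The median of the histone mRNA synthesis and processing genes was then -0.21 and -0.14. Among genes above the median level, 12 members remained, all 12 lower in mean (45.1% of those genes) and 2 lower in every mouse (10.6%). The fit without the mouse block (no pairing) gave the same median, -0.20, and 0 members past the threshold.

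Array weights, with no mouse block, gave a median of -0.044 over the members and -0.014 over replication-independent histones. They reversed Hist1h1c to 0.010, Hist2h2be to 0.12, Hist1h2bb to 0.20, Hist1h2ba to 0.091, Hist1h3c to 0.027, Hist1h4b to -0.020 and Pcna to 0.020. Centring reversed Hist1h4b to -0.051.

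Leaving out 1 array at a time, with no block, changed the members' median most without the primary tumour of C1M3. There 13 members had a lower mean, the processing genes had a median of -0.037 and the replication-independent histones 0.079. Hist1h1c was then 0.086, Hist1h2aa 0.013, Hist2h2be 0.37, Hist1h2bb 0.33, Hist1h2ba 0.19, Hist2h2bb 0.086, Hist1h3c 0.12, H2afv 0.076 and Pcna 0.15. Without the C1M5 primary tumour Hist1h4a was 0.062, and without the C1M5 metastasis Hist2h2be was 0.16. Without the C2M3 metastasis Hist1h1c was 0.22, Hist2h2be 0.0035, Hist1h2bb 0.16, Hist1h3c 0.0013 and Hist1h4a 0.046. Members lower in every remaining mouse numbered 16 without either C1M5 array (15.3% of all genes), 9 without either C2M3 array (18.2%) and 6 without either C1M3 array (18.5%).

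Leaving out whole mice, with the block, the median of the members ranged from -0.29 to -0.092 and the members with a lower mean from 20 to 26, both least without C1M3. The members lower in every mouse ranged from 6 to 16 and the median of replication-independent histones from -0.24 to 0.074. Hist1h1a ranged from -0.16 to 0.52, Hist2h2be from -0.24 to 0.10, Hist1h3c from -0.14 to 0.034, Hist1h4a from -0.14 to 0.079, Hist1h4b from -0.0097 to 0.15, H2afv from -0.84 to 0.10 and Pcna from -0.62 to 0.0088. The causes were not tested. Dim probe sets limit H3 and H4, where the signal is near that of olfactory receptor genes.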
